A study of Mus musculus with 19 samples.

Results

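The genes that copy DNA and supply its building blocks were followed through 45 members, taken from a list of symbols set by known function and found in the deposited count table by exact symbol. All 45 were among its 25124 genes, and all 45 were among the 14720 genes kept by the filter on low counts. The lowest count of any member in any library was 392.5. The study measured RNA by RNA-seq, and open chromatin by ATAC-seq, in C57BL/6 mouse cells sorted from the liver of E14.5 embryos (embryonic day) or from the bone marrow of adults aged 12 weeks. The labels name no mutant allele and no treatment. Hematopoietic stem cells (HSC) were gated as c-Kit+ Sca-1+ CD150+ CD48- Flt3-, and lymphoid-primed multipotent progenitors (LMPP) as c-Kit+ Sca-1+ CD48+ Flt3+ CD150-. Both gates left out dead cells and cells with CD3, Gr1, B220 or Ter119, and the adult gates also left out CD11b+ cells, a step the fetal gates are not said to share. Every fetal library is from liver and every adult library from marrow, so age, organ and this gating step cannot be told apart. A difference called here one of age, or between ages, is a difference between these fetal liver and adult marrow groups. RNA came from 3 adult HSC, 2 fetal HSC, 3 adult LMPP and 3 fetal LMPP libraries, and each group had 2 ATAC libraries summarised in 1 peak list. The submitters call the replicates biological but do not tie them to separate animals or pools, so every p-value measures only the spread between these libraries.

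Before S phase, the origin recognition complex, Cdc6 and Cdt1 load rings of the MCM helicase onto replication origins. Cyclin E with its kinase and the Cdc7 kinase then start the rings, which Cdc45 and the GINS complex turn into the moving helicase, and primase and the polymerases copy behind it with the help of a sliding clamp, a clamp loader and single-strand binding proteins. Ribonucleotide reductase, thymidylate synthase and thymidine kinase make the deoxynucleotides. Most adult HSC are known to rest outside the cell cycle, whereas HSC of the fetal liver and LMPP are known to divide more often.

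Library totals ran from 19799398 to 64783926 counts, and the 45 members took 0.726% of counts in adult HSC 2 and 1.16% in fetal LMPP 1, the lowest and highest shares. Levels are given as CPM, counts relative to the scaled library total, and, between genes, as CPM per kilobase of exon (FPKM). A list of 7 HSC genes summed to 1250 to 1600 CPM in HSC and 146 to 423 in LMPP. A list of 6 LMPP genes summed to 24.8 to 78.2 CPM in HSC, 2870 to 3350 in adult LMPP and 1130 to 1150 in fetal LMPP, where Dntt was at 0. Of the gate genes, Slamf1 was high in HSC, and Flt3 and Cd48 in LMPP, at both ages. Kit stood at 1138, 1143 and 195.5 CPM in adult HSC, and at 157.9 in adult LMPP 3. Mean Ly6a was 97.5 CPM in adult and 30.5 in fetal HSC, and 66.9 in adult and 19.3 in fetal LMPP. Mean Itgam was 3.05 CPM in adult and 33.4 in fetal HSC, and 27.6 in adult and 35.1 in fetal LMPP. Erythroblast genes (8 listed) summed to 930 to 1060 CPM in fetal HSC, 49.5 to 163 in adult HSC, 135 to 429 in fetal LMPP and 23.1 to 51 in adult LMPP, with Epb42 at 0 in both LMPP groups and the 2 beta-globin genes Hbb-bt and Hbb-bs as most of the sum in fetal HSC. Adult HSC 3, adult LMPP 3 and fetal LMPP 1 lay apart from their groups on the third principal component of all genes, which held 10.4% of the variance. Short members were high and long members low in these libraries. Against the group's other 2 libraries, the 15 shortest members (632 to 1717 bases of exon) were all above 0 in each of the 3, with median log2 differences of 0.57, 0.53 and 0.34, and the 15 longest (3024 to 7078 bases) had medians of −0.18, −0.17 and 0.02. Across the 45 members the correlation of this difference with log length was −0.73, −0.74 and −0.68. Because of this, counts of members are repeated with the 3 left out, a choice made after seeing the data.

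**Figure D1:**
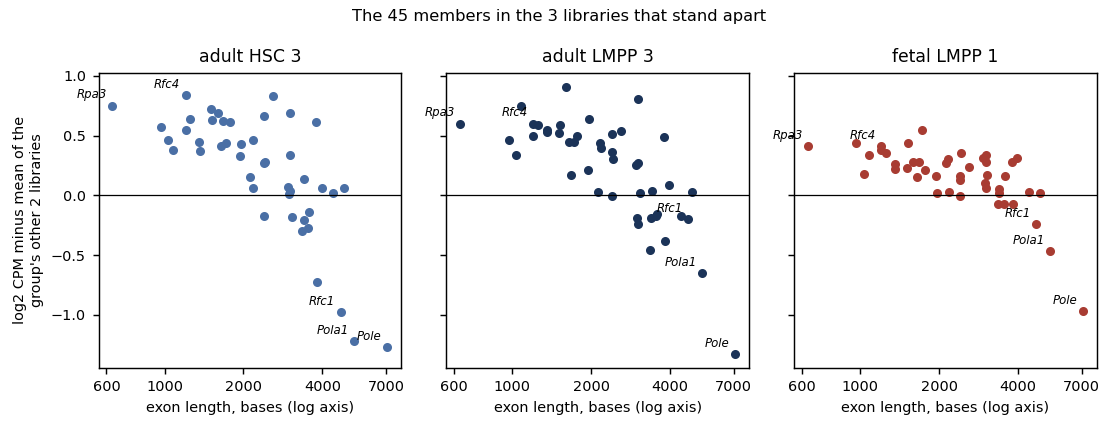
Each point is 1 of the 45 genes, with its exon length in bases on a log axis and the log2 CPM of the named library minus the mean of the other 2 libraries of its group. Short genes such as Rpa3 and Rfc4 lie above 0 and the longest, Pola1 and Pole, below 0 in all 3 libraries.

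Most members had their highest level in fetal LMPP and their lowest in adult HSC. The group mean was highest in fetal LMPP for 37 of 45 members, against 27.9% of all genes tested, and lowest in adult HSC for 29 of 45, against 24.6%. For 18 of 45 members all 3 fetal LMPP libraries lay above the other 8 libraries, as they did for 9.71% of all genes tested. These were all 6 subunits of the MCM ring, Orc1, Orc2, Orc6, Cdc6, Cdc45, Gins2, Mcm10, Pola2, Lig1, Rrm1, Rrm2 and Ccne1, and none of the 6 clamp and clamp loader genes. The split by role changed when the 3 libraries that stand apart were left out: both remaining fetal LMPP libraries then lay above the other 6 for 30 members (19.3% of genes), Pcna and Rfc4 among them. The other 8 members had their highest mean elsewhere: Pcna, Rfc2, Pola1, Prim2, Tyms and Tk1 in adult LMPP, Pole in fetal HSC and Pold2 in adult HSC. With the 3 left out, 39 members were highest in fetal LMPP (29.1% of genes) and 35 lowest in adult HSC (28.7%). Pcna, Prim2 and Tyms then had their highest mean in fetal LMPP, while Rfc2, Pola1 and Tk1 stayed highest in adult LMPP and Cdc7 joined Pole in fetal HSC. Per length, the median over the 45 members was taken in each library and averaged over the libraries of a group. It was 53.4 FPKM in adult HSC, 58.8 in fetal HSC, 68.3 in adult LMPP and 80.2 in fetal LMPP. In bulk RNA, a smaller part of the cells in S phase and less RNA of these genes in each cell cannot be told apart.

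**Figure D2:**
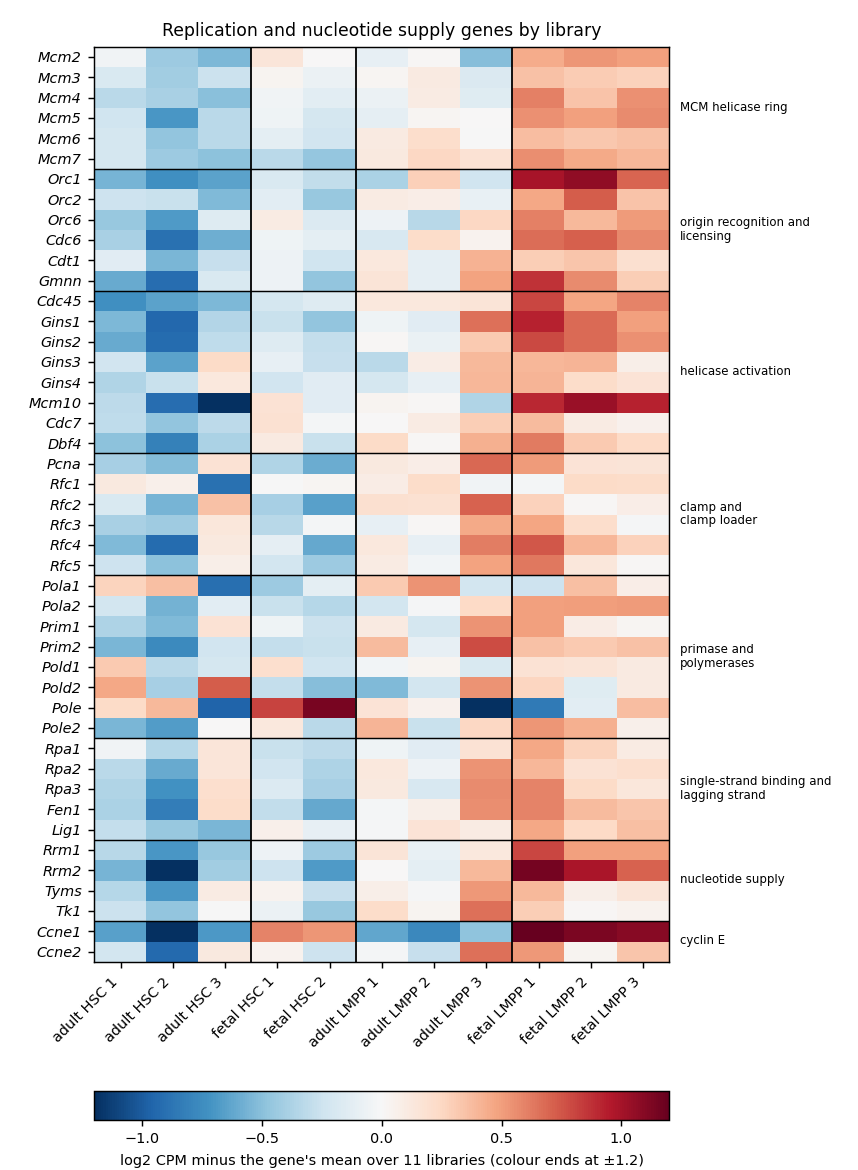
Each cell is 1 gene in 1 library, coloured by its log2 CPM minus the gene's mean over the 11 libraries, with genes grouped by role. The 3 fetal LMPP columns are red for nearly every gene, the adult HSC columns are mostly blue, and Pole, Pola1, Pold2 and Rfc1 depart from this.

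Fetal HSC were set against adult HSC. Ccne1, the cyclin E1 gene, rose, and the other 44 members did not pass the test (edgeR's quasi-likelihood test with Benjamini-Hochberg adjustment over all 14720 genes, called at adjusted p under 0.05). The share of 1 in 45 is close to that of all genes, 2.07% of which were higher, and 2.89% lower. The median log2 difference was 0.18 over the members and 0 over all genes tested, and 31 of 45 members were above 0. For 14 of 45 members both fetal libraries lay above all 3 adult ones, against 20.8% of all genes, and for 0 below (20.3%). The summed erythroblast genes, at 930 to 1060 CPM in fetal and 49.5 to 163 in adult HSC, differed too. In fetal HSC most of that sum came from Hbb-bt (18.8 ± 5.37 CPM in adult and 633 ± 65.2 in fetal HSC) and Hbb-bs (means of 14.2 and 314). Several listed genes had no higher mean in fetal HSC, such as Hba-a1 (15.1 ± 20.2 and 12.8 ± 5.80), Klf1 (22.1 ± 14.2 and 19.7 ± 0.801) and Epb42 (4.26 ± 1.04 and 2.59 ± 1.16). Their part in the comparison was not tested. With the 3 libraries that stand apart left out, 7 members were higher and 1 lower, against 7.59% and 8.59% of all genes in that fit: Orc6, Cdc45, Gins2, Cdc7, Dbf4, Pole and Ccne1 rose and Pola1 fell. In that fit 36 members were above 0. By the CPM scaled over all 11 libraries, read in the remaining ones, 23 did not overlap with fetal above adult and 2 below (31.9% and 30.4% of all 14720 genes, with 2 libraries a group). Without adult HSC 1 the count was 2, and without fetal HSC 1 it was 0.

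The comparison of LMPP by age gave a larger count. In fetal LMPP 10 of 45 members were higher than in adult LMPP and 0 lower, against 7.08% and 8.29% of all genes. Mcm2, Mcm4, Mcm5, Orc1, Cdc6, Cdc45, Mcm10, Rrm1, Rrm2 and Ccne1 rose. Of the 6 MCM ring genes 3 rose, of the 6 origin and licensing genes 2, of the 8 helicase activation genes 2, of the 4 nucleotide supply genes 2 and of the 2 cyclin E genes 1. None of the 19 genes of the clamp, primase, polymerases, single-strand binding and lagging strand passed the test. With 7.08% of all genes called higher, 0 of 19 is close to the share of all genes, and a difference between roles was not tested. The median log2 difference was 0.22 over the members and 0 over all genes, 39 of 45 were above 0, and for 19 of 45 the libraries of the groups did not overlap with fetal above adult, against 17.8% of all genes. With the 3 libraries left out, 14 members were higher and 0 lower (15.2% and 15.3% of genes), and 9 of the 10 were among the 14. In that fit 42 members were above 0. By the CPM scaled over all 11 libraries, read in the remaining ones, 33 did not overlap with fetal above adult and 1 below (32.1% and 31.8%). The summed erythroblast genes were at 135 to 429 CPM in fetal and 23.1 to 51 in adult LMPP, with means of 14.2 in adult and 128 in fetal LMPP for Hbb-bt and 8.15 and 65.4 for Hbb-bs, and their part was not tested. Without adult LMPP 1 the count was 3, without fetal LMPP 1 it was 5, and without fetal LMPP 2 or fetal LMPP 3 it was 4. Orc1 and Ccne1 kept their calls under all 21 alternatives tried.

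LMPP were also set against HSC at each age. In adult marrow 11 of 45 members were higher in LMPP and 0 lower, against 7.76% and 9.33% of all genes: Mcm6, Mcm7, Cdc6, Cdc45, Gins2, Cdc7, Dbf4, Prim2, Lig1, Rrm1 and Rrm2. The median log2 difference was 0.46 over the members and −0.05 over all genes, 42 of 45 were above 0, and for 20 of 45 the LMPP libraries all lay above the HSC ones, against 13.7% of all genes. A list of 20 mitosis genes moved with the members, 16 of them higher and 0 lower (7 to 20 higher over the alternatives and 18 without the 3 libraries), with sums of 1490 to 2430 CPM in adult HSC and 3160 to 5080 in adult LMPP, and its part in the result was not tested. With the 3 libraries left out, 26 members were higher and 0 lower (14% and 15.9% of genes), among them all 11. In that fit 42 members were above 0. By the CPM scaled over all 11 libraries, read in the remaining ones, 34 did not overlap with LMPP above HSC and 1 below (31.4% and 34.8%). Without adult HSC 2 the count was 2, without adult LMPP 1 or adult LMPP 3 it was 5, and without adult HSC 3 it was 20. A fit with only the adult groups gave 2. Cdc45 kept its call under all alternatives tried.

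Marrow libraries of the same number deviated together from their group means, with correlations of 0.15, 0.31 and 0.47, the last between adult HSC 3 and adult LMPP 3, which both stand apart. Deviations within a group of 3 cancel out, so these correlations are not independent of each other. A pairing therefore cannot be told apart from a deviation that adult HSC 3 and adult LMPP 3 share. With the number as a block of the marrow libraries, a fit added after seeing the data, 26 of 45 members were higher in adult LMPP and 0 lower, against 12.8% and 13.3% of genes, and in a blocked fit of only the adult groups 32 and 0 (15.2% and 16.7%), each with all 11. In 37 of 45 members the LMPP library was the higher one in all 3 pairs, as in 28.4% of genes. The members called in the former fit beside the 11 were Mcm4, Mcm5, Orc6, Cdt1, Gmnn, Gins1, Mcm10, Pcna, Rfc2, Rfc4, Rpa2, Rpa3, Fen1, Tyms and Tk1. The blocked fit of only the adult groups called these and also Orc2, Rfc3, Rfc5, Prim1, Pole2 and Ccne2. Elsewhere a call is that of the fit without the block, unless the block is named.

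In fetal liver 15 of 45 members were higher in LMPP and 0 lower, against 8.21% and 9.85% of all genes. Mcm4, Mcm5, Mcm6, Mcm7, Orc1, Orc2, Cdc6, Cdc45, Gins1, Gins2, Mcm10, Pola2, Rpa1, Rrm1 and Rrm2 rose. The median log2 difference was 0.58 over the members and −0.08 over all genes, and 44 of 45 were above 0. For 38 of 45 members all 3 LMPP libraries lay above both HSC ones, against 27.6% of all genes, and for Pole they lay below (33.3%). Of the mitosis list 8 of 20 genes were higher and 0 lower (0 to 16 higher over the alternatives and 14 without the 3 libraries), with sums of 2290 to 3080 CPM in fetal HSC and 4260 to 5430 in fetal LMPP. With the 3 libraries left out, 28 members were higher and 1, Pole, lower (17.9% and 20.6% of genes), and all 15 were among the 28. In that fit 43 members were above 0. By the CPM scaled over all 11 libraries, read in the remaining ones, 40 did not overlap with LMPP above HSC and 1 below (33.5% and 40.1%). The count moved with single libraries: without fetal HSC 1 it was 3, without fetal HSC 2 it was 1, and without fetal LMPP 2 it was 9. A fit with only the fetal groups gave 30, and Mcm7 kept its call under all 21 alternatives.

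The age difference of LMPP minus that of HSC was tested as an interaction. By edgeR 0 of 45 members passed, 0 had an unadjusted p under 0.05, and DESeq2 also called 0, against 0.387% of all genes higher and 0.543% lower by edgeR. The 3 members with the smallest p were Rpa1 (log2 0.51 ± 0.24, adjusted p = 0.4), Pola2 (log2 0.50 ± 0.24, adjusted p = 0.42) and Orc1 (log2 0.60 ± 0.31, adjusted p = 0.465). Both counts were also 0 with the 3 libraries left out, against 2.29% and 3.18% of genes. An age difference called in LMPP and not in HSC is therefore not shown to differ between them. Further fits were added after seeing the data. With a term for the 3 libraries that stand apart, 9 members were higher and 0 lower between ages in HSC (6.49% and 6.57% of genes), 19 and 0 in LMPP (18.1% and 15.8%), 32 and 0 between cell types in marrow (15.4% and 16.6%), 27 and 1 in liver (16% and 16.5%), and 0 and 0 for the interaction (2.69% and 3.12%). With offsets for each library's trend with exon length the counts were 5 and 0 (3.9% and 4.63%), 15 and 0 (12.4% and 10.8%), 25 and 0 (10.4% and 10.9%), 28 and 0 (12.8% and 11.1%), and 0 and 0 (1.08% and 1.17%), in the same order. The comparisons share libraries, so their values stand side by side in the plot of member differences and are not correlated.

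**Figure D3:**
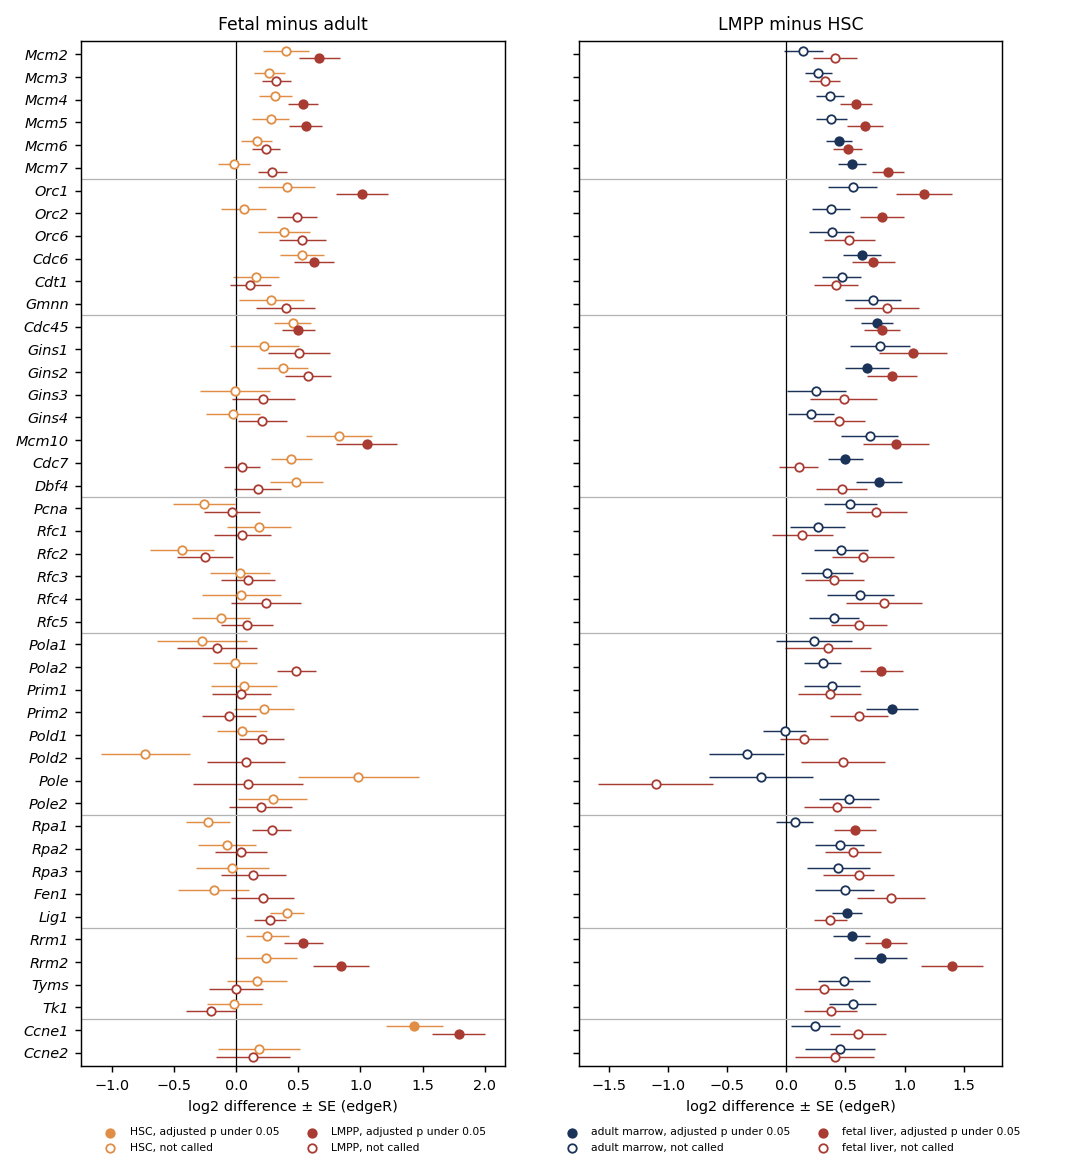
Points are edgeR log2 differences with bars of 1 SE, fetal minus adult on the left and LMPP minus HSC on the right, and filled points passed at adjusted p under 0.05. Ccne1 is filled in both cell types on the left, and on the right all points lie above 0 except both of Pole and the marrow points of Pold1 and Pold2.

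The promoters of 36 of the 45 members were matched by symbol in a RefSeq table (GRCm38.p6), as windows from 250 bases before to 50 after each start. The other 9, named only, are Mcm4, Gmnn, Gins1, Gins2, Gins4, Rfc2, Prim2, Pole and Ccne2. E2F factors are known to drive many S phase genes, so the letters TTTCCCGC, TTTGGCGC, TTTCGCGC and TTTGCCGC were searched on both strands. They stood in 13 of 36 members (36.1%) and in 4.53% of 10855 tested coding genes. The letters CCAAT stood in 61.1% of members and 43.0% of those genes, GGGCGG (the GC box) in 75.0% and 66.6%, CACGTG (the E-box) in 16.7% and 11.6%, and TTTGAA (the CHR element) in 19.4% and 14.6%. A gene with several starts counted if any of its windows held the letters, the median GC content was 60.0% in member windows and 60.3% in those of the tested coding genes, and a match is a description of the letters only. The 5 members that passed a test in at least 1 comparison and hold E2F letters upstream of the start are shown because, of the 5 motifs searched, this one had the largest difference in share between members and other genes. They lie at chr8:75109330-75109393 on the plus strand, chr1:128359719-128359841 and chr5:138172015-138172074 on the minus strand, and chr4:108579401-108579453 and chr11:98907987-98908046 on the plus strand, and are printed 5′ to 3′ along the gene with up to 26 bases on each side of the letters, which are in capitals. In Mcm5 and Mcm6 a match on each strand overlaps the next, so a capital run is longer than 1 match. The RefSeq start of Cdc6 lies 350 bases downstream of that of the count table. Its letters are therefore upstream of the RefSeq start and downstream of the count table's start.
Mcm5: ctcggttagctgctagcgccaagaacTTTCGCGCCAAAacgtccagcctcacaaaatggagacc
Mcm6: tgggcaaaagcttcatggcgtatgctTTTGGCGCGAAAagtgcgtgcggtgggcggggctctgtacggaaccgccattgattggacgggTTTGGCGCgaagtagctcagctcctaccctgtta
Mcm7: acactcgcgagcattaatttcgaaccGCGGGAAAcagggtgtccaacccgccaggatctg
Orc1: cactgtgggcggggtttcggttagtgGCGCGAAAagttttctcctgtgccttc
Cdc6: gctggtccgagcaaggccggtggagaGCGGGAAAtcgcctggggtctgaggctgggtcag

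The origin recognition and licensing genes were Orc1, Orc2, Orc6, Cdc6, Cdt1 and Gmnn. Orc1, the subunit that joins the complex late and helps Cdc6 load the ring (mm10 chr4:108579454-108614831, E2F letters above), stood at 18.6, 16.4 and 17.6 CPM in adult HSC, 24.2 and 22.3 in fetal HSC, 21.0, 33.4 and 23.2 in adult LMPP, and 54.3, 57.3 and 44.5 in fetal LMPP. All fetal LMPP libraries lay above every other library. The change was 2.01-fold between ages in LMPP (log2 1.01 ± 0.21, adjusted p = 0.00968) and 2.24-fold between LMPP and HSC in fetal liver (log2 1.17 ± 0.24, adjusted p = 0.00931). It was also the member with the lowest level per length in both HSC groups, at 5.85 ± 0.364 FPKM in adult and 7.76 ± 0.440 in fetal HSC. Cdc6, the loading ATPase (chr11:98907801-98923942), stood at 86.5, 60.9 and 75.6 CPM in adult HSC, 109.5 and 105 in fetal HSC, 98.8, 132 and 116 in adult LMPP, and 180.1, 186 and 169 in fetal LMPP. Both fetal groups lay above the adult group of the same cell type, and Cdc6 rose in fetal LMPP against adult LMPP (log2 0.62 ± 0.16, adjusted p = 0.0261) and in LMPP against HSC in marrow (log2 0.64 ± 0.16, adjusted p = 0.0211) and liver (log2 0.74 ± 0.18, adjusted p = 0.0208). In fetal HSC it missed the threshold (log2 0.53 ± 0.18, adjusted p = 0.134).

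Orc2, a core subunit of the origin complex, rose in fetal LMPP against fetal HSC (log2 0.81 ± 0.19, adjusted p = 0.0156). Orc6, its smallest subunit, stood at 69.5, 59.8 and 85.8 CPM in adult HSC, 102 and 85.0 in fetal HSC, 91.5, 75.8 and 114 in adult LMPP, and 145, 125 and 136 in fetal LMPP. Its fetal LMPP libraries were the highest, but it passed in no comparison, with log2 0.53 ± 0.19, adjusted p = 0.0829 between ages in LMPP, except in marrow with the block (log2 0.38 ± 0.11, adjusted p = 0.0331). It was called, with the 3 libraries left out, between ages in HSC (log2 0.52 ± 0.14, adjusted p = 0.0373) and LMPP (log2 0.63 ± 0.14, adjusted p = 0.0101). Cdt1, the partner of Cdc6 in loading, stood at 103, 77.5 and 93.4 CPM in adult HSC, 109 and 95.7 in fetal HSC, 124, 105 and 151 in adult LMPP, and 138, 143 and 129.5 in fetal LMPP. Its age differences were small beside their errors (0.16 ± 0.18 in HSC and 0.11 ± 0.17 in LMPP), and its LMPP libraries lay above the HSC ones at both ages without passing the test, except in marrow with the pairs as a block (log2 0.46 ± 0.11, adjusted p = 0.0157). Gmnn, which encodes geminin, the inhibitor of Cdt1, stood at 65.2, 52.8 and 87.3 CPM in adult HSC, 95.3 and 71.5 in fetal HSC, 111, 92.1 and 139 in adult LMPP, and 181, 147 and 122 in fetal LMPP. The LMPP libraries again lay above the HSC ones at both ages, just short of the threshold (log2 0.73 ± 0.24, adjusted p = 0.0598 in marrow and log2 0.85 ± 0.27, adjusted p = 0.0544 in liver), which the block passed in marrow (log2 0.74 ± 0.16, adjusted p = 0.00938).

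The 6 MCM ring genes encode the subunits of one helicase. Mcm2 stood at 499.7, 382 and 355 CPM in adult HSC, 569 and 518 in fetal HSC, 482, 521 and 363 in adult LMPP, and 701, 743 and 725 in fetal LMPP. Mcm5 stood at 377, 274 and 356 CPM in adult HSC, 429.8 and 384 in fetal HSC, 413, 453 and 446 in adult LMPP, and 652, 624 and 658 in fetal LMPP. In both genes the 3 fetal LMPP libraries were above all others, and both rose between ages in LMPP (log2 0.67 ± 0.17, adjusted p = 0.0222 for Mcm2 and log2 0.56 ± 0.13, adjusted p = 0.0185 for Mcm5). Mcm4 stood at 301, 289 and 267 CPM in adult HSC, 366 and 345 in fetal HSC, 359, 405 and 341 in adult LMPP, and 574, 479 and 553 in fetal LMPP. Its fetal libraries lay above the adult ones in both cell types. It rose between ages in LMPP (log2 0.54 ± 0.12, adjusted p = 0.0141), and in fetal LMPP against fetal HSC (log2 0.59 ± 0.14, adjusted p = 0.0158), as Mcm5 did there (log2 0.66 ± 0.15, adjusted p = 0.0148). In marrow both passed between cell types with the block (log2 0.37 ± 0.10, adjusted p = 0.0239 for Mcm4 and log2 0.39 ± 0.12, adjusted p = 0.034 for Mcm5). Mcm7 stood at 422, 360.4 and 347 CPM in adult HSC, 391 and 354 in fetal HSC, 529, 582 and 550.1 in adult LMPP, and 717, 668 and 643 in fetal LMPP. Here the HSC groups overlapped and every LMPP library lay above every HSC library, with log2 0.56 ± 0.12, adjusted p = 0.00865 in marrow and log2 0.86 ± 0.13, adjusted p = 0.00261 in liver, and no call between ages (log2 0.29 ± 0.12, adjusted p = 0.124 in LMPP). Its span holds Mir25, Mir93 and Mir106b on the same strand, and whether they overlap its exons was not examined.

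Mcm6 was called in LMPP against HSC at both ages (log2 0.44 ± 0.11, adjusted p = 0.0198 in marrow and log2 0.52 ± 0.12, adjusted p = 0.0178 in liver), and ran from 776 to 1386 CPM over the 11 libraries. Mcm3 passed in no comparison, with log2 differences of 0.27 ± 0.13 to 0.32 ± 0.13, although its fetal libraries lay above the adult ones in both cell types. The subunits were not equal per length. Mcm6 was the highest and Mcm4 the lowest in all 4 groups, at 193 ± 17.0 against 80.0 ± 4.87 FPKM in adult HSC and 309.8 ± 4.78 against 149.9 ± 14.1 in fetal LMPP. Neighbours in this order were often within their SD, such as Mcm6 (216 ± 12.3) and Mcm3 (211 ± 10.6) in fetal HSC.

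Of the 8 helicase activation genes, Cdc45, which joins the ring to form the active helicase (chr16:18780447-18811972), stood at 49.5, 52.9 and 56.7 CPM in adult HSC, 71.2 and 74.0 in fetal HSC, 89.6, 89.8 and 91.5 in adult LMPP, and 144, 115 and 124 in fetal LMPP. No 2 neighbouring groups overlapped in the order adult HSC, fetal HSC, adult LMPP, fetal LMPP. It rose between ages in LMPP (log2 0.50 ± 0.13, adjusted p = 0.0302) and in LMPP against HSC in marrow (log2 0.77 ± 0.13, adjusted p = 0.00328) and liver (log2 0.81 ± 0.15, adjusted p = 0.00612), and missed the threshold between ages in HSC (log2 0.45 ± 0.15, adjusted p = 0.12). Mcm10, which binds the helicase as it starts to move (chr2:4990724-5012344), stood at 53.9, 35.5 and 26.3 CPM in adult HSC, 75.7 and 61.1 in fetal HSC, 68.5, 67.6 and 52.3 in adult LMPP, and 126, 138 and 127 in fetal LMPP. Fetal libraries lay above adult ones in both cell types, and it rose 2.07-fold in LMPP (log2 1.05 ± 0.24, adjusted p = 0.0163) and in fetal LMPP against fetal HSC (log2 0.93 ± 0.28, adjusted p = 0.0425). In HSC the 1.77-fold difference did not pass (log2 0.83 ± 0.27, adjusted p = 0.117), and adult HSC 3 held the lowest value. Between cell types in marrow it passed with the block (log2 0.76 ± 0.15, adjusted p = 0.00624) and not without (log2 0.71 ± 0.24, adjusted p = 0.0737).

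Of the GINS subunits, Gins1 stood at 27.0, 20.4 and 30.6 CPM in adult HSC, 32.6 and 28.3 in fetal HSC, 37.9, 35.6 and 61.8 in adult LMPP, and 74.4, 62.6 and 55.0 in fetal LMPP. Gins2 stood at 45.1, 36.1 and 55.4 CPM in adult HSC, 61.7 and 56.2 in fetal HSC, 69.2, 64.9 and 85.0 in adult LMPP, and 118, 109.5 and 100.1 in fetal LMPP. The LMPP libraries lay above the HSC ones at both ages in both genes. Gins2 rose in marrow (log2 0.68 ± 0.19, adjusted p = 0.0292) and liver (log2 0.89 ± 0.21, adjusted p = 0.0174), and Gins1 in liver (log2 1.07 ± 0.29, adjusted p = 0.028), while in marrow Gins1 missed the threshold (log2 0.79 ± 0.25, adjusted p = 0.0545) and passed it with the block (log2 0.77 ± 0.17, adjusted p = 0.00895). Gins3 and Gins4 passed nowhere, with log2 differences between −0.03 ± 0.22 and 0.49 ± 0.29. Gins2 overlaps Gse1 on the other strand, and the library chemistry keeps no strand, so their shared reads cannot be told apart.

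The Cdc7 kinase and its activator Dbf4 phosphorylate the MCM ring. Dbf4 stood at 44.2, 35.4 and 48.0 CPM in adult HSC, 67.1 and 51.8 in fetal HSC, 73.2, 62.8 and 83.6 in adult LMPP, and 96.0, 77.3 and 73.7 in fetal LMPP. In marrow the LMPP libraries lay above the HSC ones and Dbf4 rose (log2 0.78 ± 0.19, adjusted p = 0.0191), as did Cdc7 (log2 0.50 ± 0.15, adjusted p = 0.0414), which ran from 71.5 to 129.4 CPM. Between ages Cdc7 differed by log2 0.44 ± 0.16 in HSC and 0.05 ± 0.15 in LMPP, and Dbf4 by 0.48 ± 0.21 and 0.17 ± 0.19. Neither interaction passed (log2 −0.40 ± 0.22, adjusted p = 0.508 for Cdc7 and log2 −0.31 ± 0.29, adjusted p = 0.746 for Dbf4). Both were called, with the 3 libraries left out, between ages in HSC (log2 0.46 ± 0.11, adjusted p = 0.0286 for Cdc7 and log2 0.57 ± 0.17, adjusted p = 0.0494 for Dbf4).

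Of the cyclin E genes, Ccne1 (chr7:38097984-38107490), which encodes cyclin E1, the partner of Cdk2 at the start of S phase, stood at 21.3, 12.8 and 20.7 CPM in adult HSC, 50.4 and 48.2 in fetal HSC, 21.6, 19.5 and 23.8 in adult LMPP, and 80.6, 73.3 and 71.3 in fetal LMPP. Every fetal library lay above every adult library. It rose 2.70-fold in HSC (log2 1.43 ± 0.23, adjusted p = 0.0048) and 3.47-fold in LMPP (log2 1.79 ± 0.21, adjusted p = 0.000531), the largest age differences among the members, and did not pass between cell types (log2 0.25 ± 0.21, adjusted p = 0.497 in marrow and log2 0.61 ± 0.23, adjusted p = 0.0988 in liver). The HSC call was lost without fetal HSC 1 (log2 1.4, adjusted p = 0.0514) and in a fit of only the HSC groups (1.43, adjusted p = 0.0504), and kept under the other 19 of 21 alternatives. Ccne2, the cyclin E2 gene, stood at 80.7, 49.1 and 102 CPM in adult HSC, 96.2 and 78.8 in fetal HSC, 92.0, 77.3 and 148 in adult LMPP, and 135, 95.9 and 118 in fetal LMPP. Its groups overlapped in all 4 comparisons and none passed without the block, with age differences of log2 0.18 ± 0.33 in HSC and 0.13 ± 0.30 in LMPP. In the blocked fit of only the adult groups Ccne2 was called between cell types (log2 0.47 ± 0.13, adjusted p = 0.0286). Ccne2 overlaps Ints8 on the other strand. Per length, Ccne1 stood at 9.39 ± 2.45 FPKM and Ccne2 at 25.6 ± 8.77 in adult HSC, whereas in fetal LMPP they were within their SD, at 38.7 ± 2.52 and 38.5 ± 6.44. A gene that acts on cyclin E in protein turnover, Skp2, a part of a ubiquitin ligase, is given with the S phase kinase genes.

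**Figure D4:**
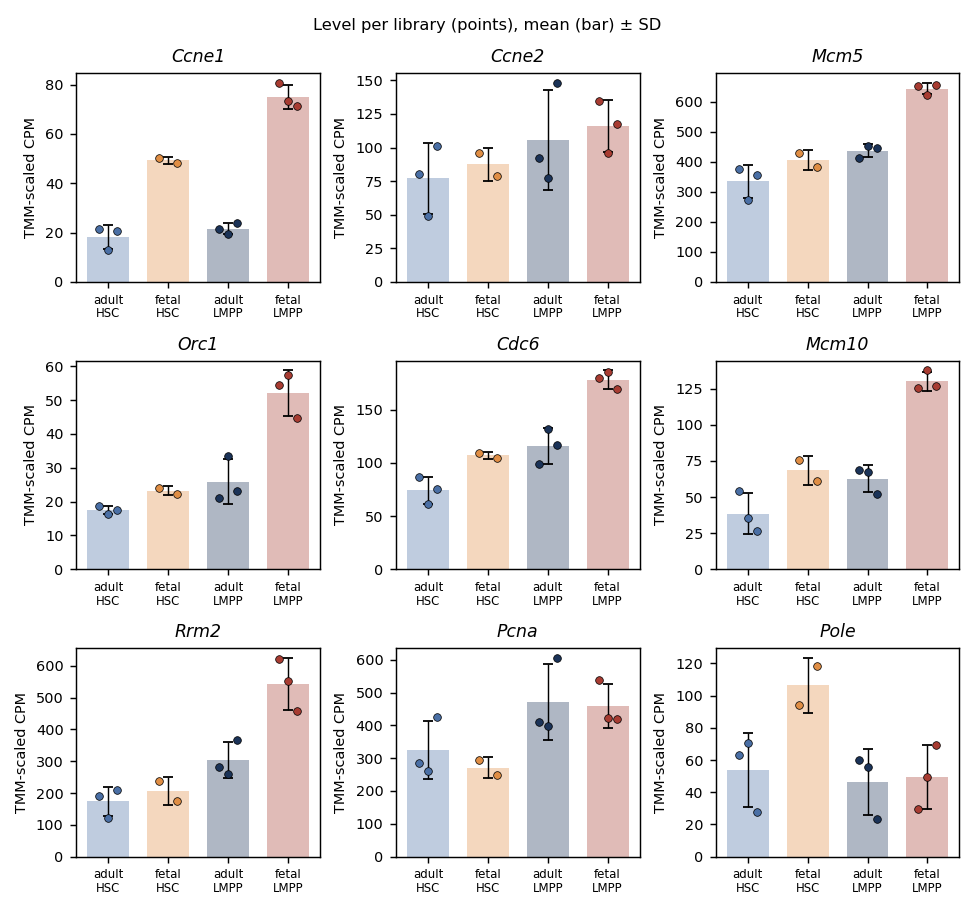
Points are scaled CPM of single libraries, bars group means and whiskers 1 SD, for 9 genes. Ccne1 is higher in every fetal than in every adult library, Orc1, Cdc6, Mcm5, Mcm10 and Rrm2 are highest in the 3 fetal LMPP libraries, Ccne2 groups overlap in every comparison, and the 2 fetal HSC libraries are the highest for Pole.

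The upstream window of Ccne1 (chr7:38107491-38107740, minus strand, 250 bases, GRCm38.p6) is shown because this gene had the largest age difference. It holds none of the E2F letters searched, and its 4 GC boxes, 1 of them on the other strand, are in capitals.
Ccne1: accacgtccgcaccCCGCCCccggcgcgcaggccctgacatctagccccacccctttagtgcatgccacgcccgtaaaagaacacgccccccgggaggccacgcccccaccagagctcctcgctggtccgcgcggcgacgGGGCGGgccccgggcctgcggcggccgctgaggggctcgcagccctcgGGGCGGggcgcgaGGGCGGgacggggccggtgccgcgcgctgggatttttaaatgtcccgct

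Open chromatin around Ccne1 was described from the 4 peak lists, with no spread between replicates and so no test. A peak covered the start in each list, from −1142 to 600 bases relative to it in adult HSC and from −1138 to 790 in fetal HSC. Its rank by the authors' deposited signal value was at the 75.1 percentile of the adult HSC list, 74.0 in fetal HSC, 75.2 in adult LMPP and 90.4 in fetal LMPP, and ranks in lists of different length show no change. Within 50000 bases on either side there were 6 peaks in adult HSC, 7 in fetal HSC, 9 in adult LMPP and 7 in fetal LMPP. Peaks of all 4 lists overlapped at 6 places. A region at chr7:38073849-38074189, which lies 33301 to 33641 bases past the start, was in the fetal HSC list and in none of the other 3, and a region about 17 kilobases past the start was in both LMPP lists, with a further one beside it in adult LMPP.

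Peaks at the starts of the members were nearly complete in every list. Within 500 bases of the start a peak lay at 44 of 45 members in adult HSC, 45 in fetal HSC, 43 in adult LMPP and 44 in fetal LMPP, against 81.9%, 80.4%, 79.0% and 75.0% of all genes tested. Tk1 had none in adult HSC, adult LMPP and fetal LMPP, and in fetal HSC its peak was at the 3.0 percentile of the list. Pola2 had none in adult LMPP. The members' peaks ranked high within each list, with medians at the 83.9, 86.4, 82.7 and 84.6 percentiles in adult HSC, fetal HSC, adult LMPP and fetal LMPP, against 68.8, 71.4, 67.1 and 67.0 over all promoter peaks. These last medians cover the promoter peaks of all 25124 genes, those below the filter on low counts included, whereas all members passed that filter.

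Of the 8 primase and polymerase genes, Prim2 rose in marrow LMPP, Pola2 in fetal LMPP against fetal HSC, and the other 6 passed in no comparison without the block. Pola1, the catalytic subunit of polymerase alpha, which extends the primers, stood at 119, 127 and 52.7 CPM in adult HSC, 72.9 and 91.0 in fetal HSC, 122, 144 and 84.7 in adult LMPP, and 83.1, 127 and 104 in fetal LMPP. All groups overlapped in all 4 comparisons, and the libraries that stand apart were the lowest of their groups. Without them Pola1 fell between ages in HSC (log2 −0.59 ± 0.15, adjusted p = 0.0291) and rose in fetal LMPP against fetal HSC (log2 0.49 ± 0.15, adjusted p = 0.0308). Pola2, the accessory subunit, stood at 110.1, 86.5 and 118 CPM in adult HSC, 107 and 101 in fetal HSC, 110, 127 and 152 in adult LMPP, and 181, 181 and 182 in fetal LMPP. Its 3 fetal LMPP libraries lay above all others with an SD of 0.635 CPM, and it rose against fetal HSC (log2 0.80 ± 0.18, adjusted p = 0.0136). Prim2, the large primase subunit, stood at 53.1, 45.8 and 66.4 CPM in adult HSC, 63.7 and 64.7 in fetal HSC, 101, 72.6 and 133 in adult LMPP, and 99.3, 96.4 and 99.0 in fetal LMPP. It rose in marrow LMPP (log2 0.89 ± 0.22, adjusted p = 0.0184), the largest difference of a member there, while the liver difference did not pass (log2 0.61 ± 0.25, adjusted p = 0.109). Prim1, the catalytic primase subunit, passed in no comparison without the block, with 0.39 ± 0.24 in marrow as its largest log2 difference. In the blocked fit of only the adult groups it was called (log2 0.39 ± 0.09, adjusted p = 0.0185).

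Pold1, the catalytic subunit of polymerase delta, which copies the lagging strand, stood at 286, 184 and 199 CPM in adult HSC, 265 and 196 in fetal HSC, 226, 235 and 203 in adult LMPP, and 260.1, 256 and 248 in fetal LMPP. It was the flattest member between cell types in marrow (−0.01 ± 0.18), and passed nowhere, and Mir7053 lies within it on the same strand. Pold2, the second subunit of that enzyme, overlaps Aebp1 on the other strand and did not pass, with log2 −0.73 ± 0.36 between ages in HSC. Pole, the catalytic subunit of polymerase epsilon on the leading strand and the longest member at 7078 bases, stood at 63.2, 70.6 and 27.6 CPM in adult HSC, 94.2 and 119 in fetal HSC, 60.1, 55.7 and 23.1 in adult LMPP, and 29.8, 49.2 and 69.5 in fetal LMPP. Both fetal HSC libraries lay above all 9 others, yet no comparison passed (log2 0.98 ± 0.49, adjusted p = 0.317 between ages in HSC and log2 −1.10 ± 0.49, adjusted p = 0.14 between cell types in liver), and the lowest value of each other group was in its library that stands apart. Without those 3 libraries Pole rose in fetal HSC against adult HSC (log2 0.66 ± 0.18, adjusted p = 0.0386) and fell in fetal LMPP against fetal HSC (log2 −0.85 ± 0.18, adjusted p = 0.00637). Pole2, its second subunit, passed in no comparison without the block, with log2 0.53 ± 0.25 in marrow at the most. In the blocked fit of only the adult groups it was called (log2 0.53 ± 0.17, adjusted p = 0.0489).

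None of the 6 clamp and clamp loader genes passed in any comparison without the block. Pcna, the sliding clamp (chr2:132249286-132253180), stood at 285, 262 and 425 CPM in adult HSC, 294 and 249 in fetal HSC, 409, 398 and 606 in adult LMPP, and 538, 422 and 419.6 in fetal LMPP. Its mean level per length was the highest of the members in adult HSC, adult LMPP and fetal LMPP, reaching 376 ± 93.4 FPKM in adult LMPP. In fetal HSC it was 217 ± 25.3 FPKM, within its SD of Mcm6 and Mcm3. Without the block it passed in no comparison, with log2 0.54 ± 0.22, adjusted p = 0.133 in marrow and log2 0.76 ± 0.26, adjusted p = 0.063 in liver between cell types, and near 0 between ages in LMPP (−0.04 ± 0.22). Adult HSC 3, adult LMPP 3 and fetal LMPP 1 were the highest of their groups. Without them Pcna was called between cell types in marrow (log2 0.55 ± 0.10, adjusted p = 0.00391) and liver (log2 0.63 ± 0.10, adjusted p = 0.00168). With the block, marrow LMPP were higher in Pcna (log2 0.55 ± 0.12, adjusted p = 0.00931), Rfc2 (log2 0.49 ± 0.12, adjusted p = 0.0153) and Rfc4 (log2 0.66 ± 0.16, adjusted p = 0.0168). The 5 loader genes are Rfc1 to Rfc5, and their log2 differences between cell types ran from 0.14 ± 0.26 for Rfc1 to 0.83 ± 0.32 for Rfc4, both in liver. Rfc2 was the highest of them per length in all groups and Rfc1, the large subunit, the lowest (228 ± 72.8 and 23.0 ± 7.89 FPKM in adult HSC). Rfc4 overlaps Eif4a2 on the other strand.

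Single-strand binding and lagging-strand genes came next. Rpa1, the large subunit of replication protein A, stood at 303, 247 and 347 CPM in adult HSC, 260.3 and 252 in fetal HSC, 303, 285 and 354 in adult LMPP, and 434, 378 and 335 in fetal LMPP. It rose in fetal LMPP against fetal HSC (log2 0.58 ± 0.18, adjusted p = 0.0466) and differed by log2 0.07 ± 0.16 in marrow, and the difference of these differences did not pass (log2 0.51 ± 0.24, adjusted p = 0.4). The 3 subunits, which form one complex, lay within their SD of each other per length in adult HSC, at 99.0 ± 16.5 FPKM for Rpa1, 106 ± 28.6 for Rpa2 and 108 ± 35.8 for Rpa3. Rpa2 and Rpa3 passed only in marrow with the block (log2 0.46 ± 0.10, adjusted p = 0.00826 for Rpa2 and log2 0.46 ± 0.14, adjusted p = 0.0415 for Rpa3). Lig1, the ligase that seals the fragments, stood at 156, 139 and 129.9 CPM in adult HSC, 199 and 178 in fetal HSC, 188, 214 and 204 in adult LMPP, and 263, 224 and 244 in fetal LMPP. It rose in marrow LMPP (log2 0.51 ± 0.13, adjusted p = 0.0193), and its fetal libraries lay above the adult ones in both cell types without passing (log2 0.41 ± 0.14, adjusted p = 0.136 in HSC and log2 0.27 ± 0.13, adjusted p = 0.176 in LMPP). Fen1, the flap endonuclease, overlaps Tmem258 on the other strand, and reached log2 0.89 ± 0.29 between cell types in liver (adjusted p = 0.0575), and passed in marrow with the block (log2 0.53 ± 0.14, adjusted p = 0.021).

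Of the 4 nucleotide supply genes, both ribonucleotide reductase genes passed in 3 comparisons and the other 2 in none without the block. Rrm2, the small subunit, which is made in S phase (chr12:24708254-24714146), stood at 191, 123 and 210 CPM in adult HSC, 237 and 175 in fetal HSC, 282, 259 and 367 in adult LMPP, and 621, 553 and 458 in fetal LMPP. The 3 fetal LMPP libraries lay above all others. Rrm2 rose 2.64-fold in fetal LMPP against fetal HSC (log2 1.40 ± 0.26, adjusted p = 0.00623), the largest cell type difference of a member, and 1.74-fold in marrow (log2 0.80 ± 0.23, adjusted p = 0.0354), and 1.80-fold between ages in LMPP (log2 0.84 ± 0.23, adjusted p = 0.0306). Rrm1, the large subunit, stood at 516, 399.8 and 473 CPM in adult HSC, 624 and 478 in fetal HSC, 722, 608 and 706 in adult LMPP, and 1133, 915 and 915 in fetal LMPP. It followed the same order of groups and passed in the same comparisons with smaller log2 differences. Rrm1 rose between ages in LMPP (log2 0.54 ± 0.15, adjusted p = 0.0398) and in LMPP against HSC in marrow (log2 0.55 ± 0.16, adjusted p = 0.0333) and liver (log2 0.84 ± 0.18, adjusted p = 0.0101). The LMPP age call was lost with the 3 libraries left out (log2 0.45 ± 0.16, adjusted p = 0.0571). Per length the subunits were at 117 ± 14.8 FPKM for Rrm1 and 80.4 ± 21.1 for Rrm2 in adult HSC, and within their SD of each other in fetal LMPP (248 ± 31.7 and 251 ± 37.7).

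Tyms, thymidylate synthase, stood at 141, 111 and 191 CPM in adult HSC, 184 and 148 in fetal HSC, 188, 177 and 256 in adult LMPP, and 234, 188 and 198 in fetal LMPP. Tk1, the S phase thymidine kinase, stood at 100.1, 86.3 and 119.8 CPM in adult HSC, 114 and 87.6 in fetal HSC, 139.9, 122 and 189 in adult LMPP, and 147, 121 and 124 in fetal LMPP. Neither passed in any comparison without the block, and their log2 age differences in LMPP were 0.00 ± 0.22 for Tyms and −0.20 ± 0.20 for Tk1. Both were highest in adult LMPP 3. With the 3 libraries left out both were called between cell types in marrow (log2 0.52 ± 0.14, adjusted p = 0.0232 for Tyms and log2 0.48 ± 0.14, adjusted p = 0.0335 for Tk1), as they were with the block (log2 0.50 ± 0.13, adjusted p = 0.0174 for Tyms and log2 0.55 ± 0.13, adjusted p = 0.0135 for Tk1). Tk1 overlaps Afmid on the other strand, a processed copy of Tyms has a row of its own in the table, and the rows of Tyms and Cdc6 are named by noncoding RefSeq transcripts, whose length enters their FPKM.

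Listed genes of the same pathways that are no members were read in the same fit. Of 19 pyrimidine and deoxynucleotide genes 8 rose and 1 fell in fetal against adult LMPP, 0 changed between ages in HSC, and in LMPP against HSC 5 rose in marrow and 10 in liver, with 0 lower. In the fit without the 3 libraries the counts higher and lower were 2 and 1 between ages in HSC, 11 and 1 in LMPP, 9 and 3 between cell types in marrow, and 13 and 1 in liver. Nme2, a nucleoside diphosphate kinase, had the smallest p of them between ages in LMPP (145 ± 16.7 CPM in adult and 277 ± 21.4 in fetal LMPP, log2 0.93 ± 0.13, adjusted p = 0.00117) and between cell types in liver (log2 1.11 ± 0.15, adjusted p = 0.00125). The gene that fell in fetal LMPP was Tk2, the mitochondrial thymidine kinase (log2 −0.70 ± 0.18, adjusted p = 0.028). Of 11 purine genes 5 rose between ages in LMPP, 0 in HSC, 2 in LMPP against HSC in marrow and 5 in liver, with 0 lower. These counts were 7, 1, 3 and 9 in the fit without the 3 libraries, with 0 lower. Gmps, GMP synthetase, led by p between ages in LMPP (log2 0.86 ± 0.11, adjusted p = 0.000912) and between cell types in liver (log2 0.70 ± 0.13, adjusted p = 0.00553), and Impdh1, an IMP dehydrogenase, in marrow (log2 0.80 ± 0.16, adjusted p = 0.00738). The age difference of LMPP minus that of HSC passed for 0 genes of either list, and for 1 pyrimidine gene with the 3 libraries left out. Shares of all genes called are those given with the members' counts, and over the alternatives the 6 pathway lists together had 0 to 11 genes higher between ages in HSC, 11 to 35 in LMPP, 7 to 32 between cell types in marrow, 3 to 40 in liver and 0 to 8 for the interaction, and 0 to 3, 0 to 6, 0 to 5, 0 to 4 and 0 lower.

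Of 11 licensing and initiation genes 0 passed between ages (1 rose and 1 fell in LMPP without the 3 libraries), and Mcmbp, an MCM-binding protein, rose in LMPP against HSC at both ages (log2 0.69 ± 0.12, adjusted p = 0.00367 in marrow and log2 1.04 ± 0.14, adjusted p = 0.00131 in liver). Of 20 fork and polymerase genes 0 rose between ages in HSC, 2 in LMPP (Dna2 and Top1, a nuclease and a topoisomerase, with log2 0.53 ± 0.13, adjusted p = 0.022 for Top1), 5 in LMPP against HSC in marrow, led by Top1 (log2 0.57 ± 0.13, adjusted p = 0.0141), and 3 in liver, led by Pole3, an accessory subunit of polymerase epsilon (log2 0.79 ± 0.18, adjusted p = 0.0124). None of them fell. In the fit without the 3 libraries 2 rose and 1 fell between ages in HSC, 5 rose in LMPP, 7 in marrow and 9 in liver.

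Of 13 E2F and Rb genes 0 passed between ages in HSC, and E2f4, E2f5 and Tfdp1 rose in fetal against adult LMPP, with the smallest p for E2f5 (log2 1.35 ± 0.25, adjusted p = 0.00599). Tfdp1, the binding partner of E2F factors, also rose in LMPP against HSC in liver (log2 0.82 ± 0.14, adjusted p = 0.00353), and 0 passed in marrow. Of the list, with the 3 libraries left out, 3 rose and 3 fell between ages in LMPP, 2 rose and 1 fell in HSC, and 2 and 2 in marrow and 3 and 2 in liver between cell types. Of 9 S phase kinase genes Skp2, the substrate receptor of the ligase named above, rose in fetal cells of both types, from 38.1 ± 7.22 to 86.9 ± 3.87 CPM in HSC (log2 1.19 ± 0.20, adjusted p = 0.00674) and from 52.0 ± 8.33 to 121 ± 13.7 in LMPP (log2 1.22 ± 0.19, adjusted p = 0.00198). Ccna2, the cyclin A2 gene, led those that rose in LMPP against HSC in marrow (log2 1.01 ± 0.18, adjusted p = 0.00396, 4 genes) and liver (log2 0.94 ± 0.21, adjusted p = 0.0123, 3 genes), counts that were 4 and 5 without the 3 libraries.

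The 20 mitosis genes, read for comparison, had median log2 differences of 1 in marrow and 0.88 in liver between LMPP and HSC, against 0.46 and 0.58 for the 45 members. Ect2, a cytokinesis regulator, had the smallest p in marrow (log2 2.40 ± 0.17, adjusted p = 1.91e-05) and between ages in HSC (log2 1.64 ± 0.18, adjusted p = 0.000597), and its interaction was called (log2 −1.53 ± 0.25, adjusted p = 0.0184). Kif23, a mitotic kinesin, led in liver (log2 0.97 ± 0.17, adjusted p = 0.00447), and Bub1, a checkpoint kinase, was the gene of the list that rose between ages in LMPP (log2 0.68 ± 0.18, adjusted p = 0.0273). The age medians of the mitosis list, 0.38 in HSC and 0.27 in LMPP, stood beside 0.18 and 0.22 for the members.

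Across the 11 libraries, members followed their common pattern to different degrees. Pearson's r of a member's log2 CPM with the mean of all members' standardised values, which includes the member itself, was highest for Rrm2 (0.99), Gins1 and Gins2 (both 0.986), and lowest for Pole (−0.473), Pola1 (−0.03), Rfc1 (0.236) and Pold2 (0.244). Pole, Pola1 and Rfc1 are among the longest members, and Pold2 is among the shortest. Against their group's other libraries these genes stood, in this order, at log2 −1.27, −1.22, −0.98 and 0.69 in adult HSC 3. The signs were the same in adult LMPP 3 and fetal LMPP 1. The r values were not repeated without the 3 libraries that stand apart, and the part of exon length was not tested. Ccne1 stood at 0.704 and Ccne2 at 0.83. Among genes that are no members, the 5 with the highest r were Phgdh (0.986), Hmgb1 (0.984), Tpx2 (0.984), Tacc3 (0.982) and AV051173 (0.982). Phgdh, the first enzyme of serine synthesis, stood at 333, 297 and 391 CPM in adult HSC, 438 and 388 in fetal HSC, 528, 508 and 724 in adult LMPP, and 965, 801 and 789 in fetal LMPP. These r values describe 11 libraries that share depth and group structure.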

How the data were processed

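The labels' protocols name SMART-Seq v4 for cDNA and Nextera XT for libraries, which mark neither strand nor single molecules. The authors deposited expected counts of reads in exons, 1 row per gene, which HOMER took as raw values from mm10, per the file headers. Values move in steps of 0.5, and the 22.5% that were not whole were rounded. The table held 0 columns of other libraries. For ATAC-seq the authors deposited 1 peak list per group with a score, a signal value and −log10 q values for each peak, taken as deposited. The sources used here do not give whether replicates were pooled. The submitters' processing notes name SAMtools 1.9, Bowtie2 2.3.5, MACS2, Picard, STAR, RSEM, DESeq2, HOMER and Trim Galore, without roles.

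The rounded counts entered edgeR 4.0.16 under R 4.3.3 (filterByExpr, TMM scaling, a means model of 4 groups over 11 libraries, quasi-likelihood test, Benjamini-Hochberg adjustment over 14720 genes, called at adjusted p under 0.05). The common biological coefficient of variation was 0.372, with 3.46 prior degrees of freedom. Every adjusted p is from edgeR unless DESeq2 is named. Log2 differences are given ± SE, levels per library, and FPKM as mean ± SD over the 3 libraries of a group (2 for fetal HSC). Alternatives used DESeq2 1.42.0, other scalings and filters, a replicate block, and each library left out. Same-numbered marrow libraries met the rule for pairs (correlations of their deviations from the group means of 0.15, 0.31 and 0.47, each over 0.1), a pairing read from the data and not from the labels, so blocked values are given there. The rule cannot separate a pairing from a deviation shared by adult HSC 3 and adult LMPP 3. The other groups did not meet it. Peaks, promoters and figures were handled in Python 3.11.15 with pandas 2.3.3 and matplotlib 3.10.9. Reads copied by PCR are not independent molecules, so depth limits cover counting error only.

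The members, gene lists and rules were chosen with earlier results of these data known. Members named in every library were, per comparison, up to 8 called members with the largest difference (or the 3 smallest p where fewer than 3 were called) and 16 set for their roles. Of other lists the called gene with the smallest p was named, except 1 that is not reported here, and further genes were named after their values were seen.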

Additional observations from a re-analysis of the deposited data

How the results depend on the processing

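No called difference of a member changed sign under any alternative. Scaling by RLE or upper quartiles and either filter left every count within 1.5 times its value, as did all windows and peak thresholds for the promoter counts. For fetal against adult HSC, where 1 member was higher, DESeq2 gave 4, a fit of only the compared groups 0, and the fits chosen after seeing the data 7 higher and 1 lower (without the 3 libraries that stand apart), 9 (a term for them) and 5 (offsets that remove each library's trend with exon length). For fetal against adult LMPP (10 higher) the fit with a term gave 19. For LMPP against HSC in marrow (11 higher) DESeq2 gave 18, only the compared groups 2, and the added fits 26, 32 and 25. In liver (15 higher) only the compared groups gave 30, and the added fits 28 higher and 1 lower, 27 higher and 1 lower, and 28 higher. Leaving out 1 library at a time gave 0 to 2 members higher for fetal against adult HSC, 3 to 14 for fetal against adult LMPP, 2 to 20 for LMPP against HSC in marrow and 1 to 21 in liver. The cause of these shifts was not tested. The members' calls were kept in 172 of 210 refits for LMPP by age, 203 of 253 for marrow and 267 of 315 for liver. Members had counts of at least 392.5 in every library, and the part of depth in the spread between libraries was not tested.

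Deviations of same-numbered libraries from their group means correlated at −0.21 to 0.47, and over 0.1 in 3 of 15 pairs, which were the 3 marrow pairs. With the replicate block over all 4 groups the counts of higher members were 1 for fetal against adult HSC, 11 for fetal against adult LMPP, 13 for LMPP against HSC in marrow, 14 in liver and 0 for the interaction. With the block of the marrow libraries alone the marrow count was 26, and 32 in a blocked fit of only the adult groups. The block of the marrow libraries ended no call of a member there.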
